A study of Mus musculus with 12 samples.

Results

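Integrins are paired alpha and beta chains in the cell membrane that hold a cell to the matrix around it. The 44 genes described here encode 18 integrin chains, 14 proteins of the adhesion plaque, which collects on the inner side of bound integrins, and 12 actin binding proteins that bundle, crosslink or pull on the filaments attached there. They are matched by gene name, and all 44 were present among the 49671 genes of the deposited count table. Each also had enough counts to be among the 15271 genes tested.

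The libraries came from ImPSC-1, a mouse pancreatic stellate line, which the labels call pancreatic mesenchymal cells. Stellate cells are the collagen-producing mesenchymal cells of the pancreas. The product of Kitl, stem cell factor, binds the receptor KIT. There were 4 groups of 3 polyA-selected libraries, all from stable derivatives of this line grown in DMEM with serum. shCtrl cells, of genotype WT in the labels, are the control of shKitl cells, in which Kitl was knocked down. Egfp_OE cells overexpress Egfp and are the control of Kitl_OE cells, which overexpress Kitl. The labels used here do not give the promoter of the transgenes, whether a derivative is a clone or a pool, or whether the replicates are separate cultures, so p-values measure the spread between these libraries, which may be technical.

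Kitl itself stood at 72.4, 31.8 and 72.2 CPM (counts scaled to library size) in Egfp_OE replicates 1, 2 and 3 and at 125, 114 and 128 CPM in Kitl_OE (log2 1.06, adjusted p = 0.00836 by edgeR). It stood at 73.4 to 76.3 CPM in shCtrl and 25.1 to 30.3 CPM in shKitl (log2 -1.46, adjusted p = 0.121). Libraries held 24979742 to 33517686 counts in genes. Egfp_OE replicate 2 stood apart: ERCC spike-in RNA took 1.35% of its counts against 0.446% to 0.684% in the other 11 libraries, and its counts were shifted from long to short genes, as described below. The mesenchymal gene Vim was at 1392 to 3525 CPM in every library, Prss1 of acinar cells was at 0 in all of them, and the summed level of 7 epithelial markers was at most 11.97 CPM. Summed mesothelial markers (7 genes) were at 16.5 to 30.9 CPM in Egfp_OE and 232 to 419 CPM in Kitl_OE, with no gene at 0 throughout, and summed smooth muscle markers (6 genes) at 122 to 297 and 2835 to 5498 CPM. Summed mesenchymal markers (10 genes) were at 7873 to 10605 and 21915 to 27567 CPM. Of these 10, however, 4 were called higher and 2 lower (lowest log2 -3.68), against 15.4% and 18.9% of all genes tested. Endothelial markers (5 genes) were at 3.79 to 5.55 and 22.4 to 26.5 CPM, with Pecam1 at most 0.255 CPM in any library. In shCtrl and shKitl, mesothelial sums were 74.5 to 102 and 107 to 177 CPM, and smooth muscle sums 224 to 685 and 130 to 1249 CPM. Mesenchymal sums there were 8623 to 11138 and 10093 to 23082 CPM, and endothelial sums 5.845 to 8.09 and 9.07 to 21.7 CPM. The part of these markers in the results below was not tested.

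Inside the cell, talin binds the tails of the beta chains and, with kindlin, switches integrins on. Vinculin then ties talin to actin, a complex of ILK, PINCH and parvin adds a further link, and zyxin and its relatives gather where filaments are under tension. In fibroblasts and stellate cells these structures carry the pulling force of actomyosin to the collagen outside. Several plaque and actin genes are textbook targets of serum response factor, which binds the CArG box, and of the YAP and TEAD factors, which bind CATTCC. The promoters of the members were therefore searched.

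Upstream sequence is shown for the 3 members with a CArG box and for Itgb1, the most abundant beta chain, which holds CATTCC on the opposite strand directly before its start. The stretches are read 5′ to 3′ on the strand of the gene from RefSeq promoters of build GRCm38.p6, and capitals mark the match. For Cnn2 the stretch is chr10:79988514-79988583 on the plus strand, and the box begins 56 bases before the start site. The Fermt2 stretch is chr14:45530230-45530299 on the minus strand, with the box 204 bases before the start. The Vcl stretch is chr14:20929148-20929210 on the plus strand, with the box 227 bases before the start. The Itgb1 stretch is the 60 bases before its start, chr8:128685594-128685653 on the plus strand.
Cnn2: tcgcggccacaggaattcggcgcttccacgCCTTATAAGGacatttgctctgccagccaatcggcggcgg
Fermt2: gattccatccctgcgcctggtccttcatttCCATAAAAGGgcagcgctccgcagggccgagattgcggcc
Vcl: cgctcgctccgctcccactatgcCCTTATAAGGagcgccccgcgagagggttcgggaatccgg
Itgb1: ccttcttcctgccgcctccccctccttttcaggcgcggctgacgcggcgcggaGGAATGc

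RefSeq promoters, 250 bases before to 50 after a start site, were matched for 36 of the 44 members by symbol. The CArG box was found on either strand in 3 of these 36, against 1.81% of 27025 genes. CATTCC was found in 10 of 36 members and 16.6% of all genes, and the AP-1 site TGACTCA in 4 of 36 and 5.95%. A gene counted if any of its windows matched, with 45 windows for the 36 members and 32851 for all genes. Some windows lie at start sites inside a gene, among them those with the TGACTCA matches of Itga9, Cald1 and Palld and the CATTCC matches of Lpp and Palld. The SP1 site GGGCGG was found in 27 of 36 members and 38.2% of all genes, and in 12 of the 12 actin binding genes, 8 of the 10 plaque genes matched and 7 of the 14 integrin chains matched. A match is a description of the letters in the window. The shares of all genes also include genes that were not among the 15271 tested, while every member was tested. Shares over the tested genes alone were not taken.

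The first comparison asked whether these genes differ between Kitl_OE and Egfp_OE cells. Of the 26 plaque and actin binding genes 19 rose and 0 fell, while equal numbers of integrin chains rose and fell. Among all genes tested, 15.4% were called higher and 18.9% lower by edgeR at an adjusted p of 0.05, 34.3% in all, with a median log2 difference of -0.07. Of the 14 plaque genes, 11 rose, 0 fell and 3 did not pass, with a median of 1.054, and of the 12 actin binding genes 8 rose, 0 fell and 4 did not pass, with a median of 0.82. Of the 18 integrin chains, 5 rose, 5 fell and 8 did not pass, with a median of -0.10. The median size of change regardless of sign was 2.04 for integrin chains against 1.054 for plaque, 0.82 for actin binding and 0.54 for all genes. Above 2.04 were Itga1, Itga2, Itga4, Itga8, Itga9, Itgb4 and Itgb8, with Egfp_OE means of 0.0853 to 3.98 CPM, and Itga7 and Itgb7. Below it lay the more abundant Itga3, Itga5, Itga6, Itgav, Itgb1 and Itgb5, and also the low Itga10, Itga11 and Itgb3. The part of low counts in this contrast was not tested. The groups did not overlap for 27 members higher and 5 lower in Kitl_OE, against 24.9% and 25.6% of all genes, 50.5% together. Leaving out a Kitl_OE library lowered the plaque count to 7 without replicate 1 and 6 without replicate 3, and the integrin count called lower was 3 without any 1 of Egfp_OE replicates 1 and 3 and Kitl_OE replicates 1, 2 and 3. The integrin median was 0.07 without Egfp_OE replicate 1 and 0.06 without Kitl_OE replicate 3, so its sign was not stable.

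**Figure D1:**
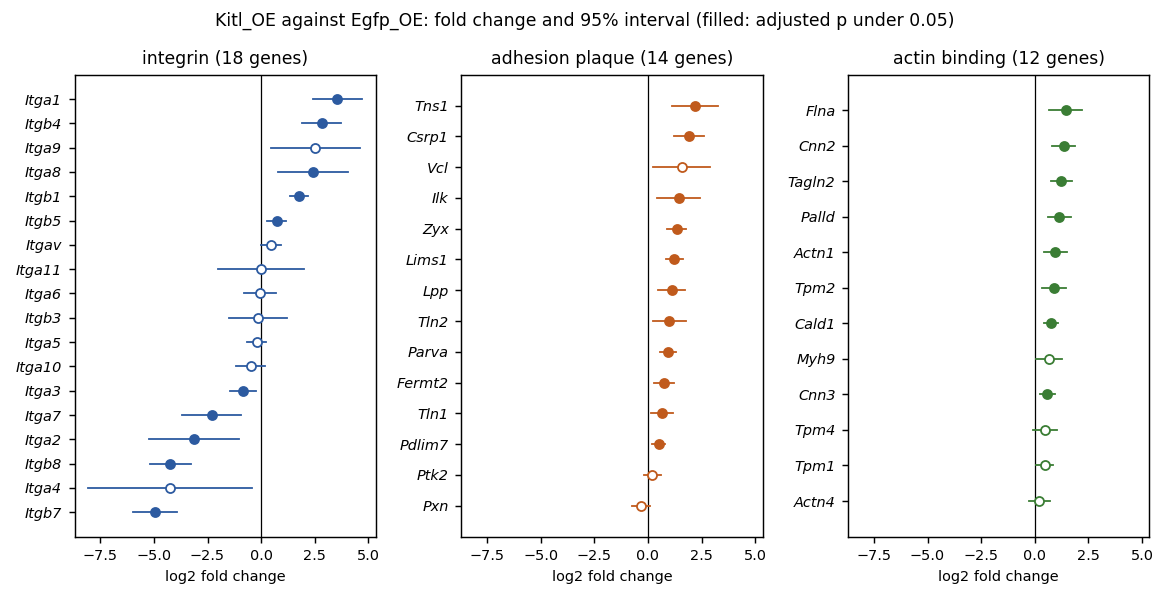
Log2 fold change of each of the 44 genes in Kitl_OE against Egfp_OE (x axis) with its 95% interval, by class; filled points passed an adjusted p of 0.05. Integrin chains spread from -4.95 (Itgb7) to 3.56 (Itga1), while 25 of the 26 plaque and actin binding genes lie above 0.

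Itgb1, the beta chain that most alpha chains pair with, was at 566, 356 and 382 CPM in the Egfp_OE replicates and 1527, 1404 and 1519 CPM in Kitl_OE. Every Kitl_OE library was above every other library of the study, since shCtrl and shKitl ranged from 721 to 904 CPM. The rise was 3.41-fold (log2 1.77 ± 0.20 SE, adjusted p = 7.31e-05). Itgb4, the long-tailed beta chain of the laminin receptor of hemidesmosomes, was at 1.89, 1.56 and 2.11 CPM in Egfp_OE and 13.9, 16.7 and 8.77 CPM in Kitl_OE. It rose 7.05-fold (log2 2.82 ± 0.41 SE, adjusted p = 0.000425) and again lay above the other 9 libraries. Itgb5, a partner of alpha v, was at 153, 165 and 135 CPM against 250.5, 250.6 and 248 CPM. Its rise of 1.65-fold (log2 0.72 ± 0.20 SE, adjusted p = 0.0176) was not called without Egfp_OE replicate 3 (log2 0.65, adjusted p = 0.0576), and shKitl replicate 2, at 271 CPM, was higher than any Kitl_OE library.

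Itgb7 and Itgb8 went the other way. Itgb7, best known from lymphocytes homing to the gut, was at 19.2, 30.2 and 29.7 CPM in Egfp_OE and 0.778, 0.842 and 0.921 CPM in Kitl_OE, 30.9-fold lower (log2 -4.95 ± 0.46 SE, adjusted p = 2.832e-05). Itgb8, whose pair with alpha v activates latent TGF-beta, was at 4.06, 1.96 and 3.12 CPM against 0.156, 0.146 and 0.171 CPM, 18.9-fold lower (log2 -4.24 ± 0.44 SE, adjusted p = 5.115e-05). It rested on 13 counts in Kitl_OE and 284 in Egfp_OE, so the count ratio of 0.047 had an exact 95% interval of 0.0247 to 0.0817, which covers counting error only. For both chains the Kitl_OE libraries were below all of the other 9. Itgb3, the beta chain of the vitronectin receptor, was at 4.55, 3.00 and 3.22 CPM in Egfp_OE and 3.23, 3.84 and 2.73 CPM in Kitl_OE. These overlapped, and the difference was not called (log2 -0.14, 95% interval -1.48 to 1.21, adjusted p = 0.883).

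Among the collagen binding alpha chains, Itga1 was at 5.66, 2.80 and 3.49 CPM in Egfp_OE and 60.6, 37.6 and 43.3 CPM in Kitl_OE. It rose 11.8-fold (log2 3.56 ± 0.53 SE, adjusted p = 0.000487), the largest rise of the 44 genes, and no other library exceeded 18.8 CPM. Itga2, the other widely expressed collagen receptor chain, was low throughout, at 1.00, 0.0801 and 1.21 CPM against 0.156, 0 and 0.102 CPM. It was 8.66-fold lower (log2 -3.11 ± 0.96 SE, adjusted p = 0.0264) on 73 and 7 counts in all, Egfp_OE replicate 2 overlapped Kitl_OE, and the call was lost without Egfp_OE replicate 1 or 3 or Kitl_OE replicate 2 or 3 (log2 -3.25 to -2.54, adjusted p 0.0617 to 0.0863). Itga11, the fibroblast collagen receptor chain, did not pass (log2 -0.01, 95% interval -2.00 to 1.98), and neither did Itga10 (log2 -0.49, adjusted p = 0.247).

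None of the 3 laminin binding chains was called higher. Itga7, the laminin receptor chain of muscle, was at 8.10, 21.9 and 10.4 CPM in Egfp_OE and 1.09, 4.10 and 2.93 CPM in Kitl_OE, 4.96-fold lower (log2 -2.31 ± 0.63 SE, adjusted p = 0.0150). The groups did not overlap, but the highest value was that of Egfp_OE replicate 2, without which log2 was -1.76 (adjusted p = 0.0442), and the call was lost without Kitl_OE replicate 1 (log2 -1.91, adjusted p = 0.0538). Itga3 was at 97.0, 49.3 and 106 CPM against 50.05, 42.8 and 47.2 CPM, and Egfp_OE replicate 2 lay within the Kitl_OE range. Its fall (log2 -0.85 ± 0.29 SE, adjusted p = 0.0383) was not called when any 1 of 8 libraries was left out: shCtrl replicate 2 or 3, shKitl replicate 1, Egfp_OE replicate 1 or 3, or any Kitl_OE replicate (log2 -0.89 to -0.64, adjusted p 0.0574 to 0.130). Itga6, the usual partner of Itgb4, did not pass (log2 -0.06, 95% interval -0.81 to 0.70).

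The RGD binding chains read the Arg-Gly-Asp motif of fibronectin and vitronectin. Itga5, the fibronectin receptor chain, was at 223, 131 and 217 CPM in Egfp_OE and 158, 147 and 191 CPM in Kitl_OE, which overlapped (log2 -0.20 ± 0.20 SE, adjusted p = 0.463). Without Egfp_OE replicate 2, its lowest library, the value was -0.40 and passed (adjusted p = 0.0381). Itgav was at 282, 155 and 208 CPM against 293, 260.1 and 331 CPM and did not pass (log2 0.45 ± 0.21 SE, adjusted p = 0.121). It did pass without Egfp_OE replicate 1 (log2 0.70, adjusted p = 0.0254). Itga8, a chain of contractile mesenchymal cells, was at 0.572, 0.200 and 0.738 CPM against 1.94, 2.78 and 3.51 CPM. It rose 5.36-fold (log2 2.42 ± 0.74 SE, adjusted p = 0.0255), with shKitl replicate 2, at 3.10 CPM, inside the Kitl_OE range, and the call was lost without Egfp_OE replicate 1 or 2 or Kitl_OE replicate 2 or 3 (log2 2.08 to 2.52, adjusted p 0.0561 to 0.0645).

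The alpha4 and alpha9 chains were near the limit of detection. Itga4 had 7 counts over the Egfp_OE libraries and 0 over Kitl_OE, which allows a ratio of up to 0.712 by counting alone, and was not called (adjusted p = 0.0817). It was called lower without shCtrl replicate 3 (log2 -4.25, adjusted p = 0.0480) and by DESeq2 (log2 -3.62, adjusted p = 0.0480). Itga9 had 20 counts in Egfp_OE and 102 in Kitl_OE and missed the threshold (log2 2.53 ± 0.95 SE, adjusted p = 0.0595); it passed without shCtrl replicate 1, shKitl replicate 3 or Egfp_OE replicate 1 (log2 2.53 to 4.01).

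**Figure D2:**
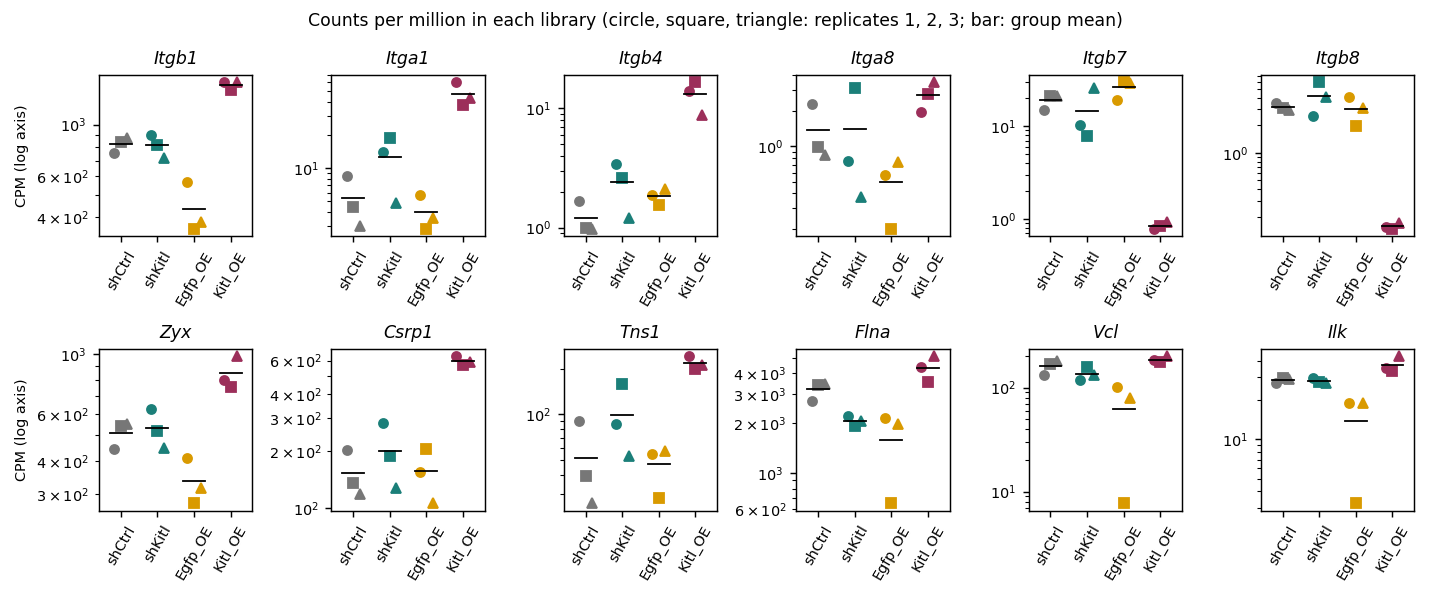
CPM of 12 member genes in each library (log axis), with replicates 1, 2 and 3 as circle, square and triangle and the group mean as a bar. Kitl_OE lies above all other libraries for Itgb1, Itga1 and Itgb4 and below them for Itgb7 and Itgb8, while Egfp_OE replicate 2 lies far below every other library for Vcl (7.73 CPM) and Ilk (3.24 CPM).

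Levels can be compared between genes only per length, for which the deposited TPM, which are scaled by gene length, were used. The 12 alpha chains summed to 267 ± 107 TPM (SD, n = 3) in Egfp_OE and 258 ± 28.3 TPM in Kitl_OE, and the 6 beta chains to 468 ± 123 and 1267 ± 70.0 TPM. In shCtrl these sums were 381 ± 20.2 and 781 ± 35.2 TPM, and in shKitl 335 ± 45.1 and 809 ± 96.6 TPM. Thus the beta chain sums of Kitl_OE, at 1219 to 1347 TPM, lay above all other libraries (338 to 906 TPM). Its alpha chain sums, at 248, 237 and 290 TPM, lay within the range of Egfp_OE only through Egfp_OE replicate 2. The Egfp_OE sums were 321, 144 and 336 TPM in replicates 1, 2 and 3, and those of shCtrl were 358 to 394 TPM.

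Itga5 led the alpha chains in every group, ahead of Itgav and Itga3, although neighbours in this order overlapped in Egfp_OE, and Itgav overlapped Itga3 in shKitl. Itga1 made up 0.737% ± 0.158 of alpha chain TPM in Egfp_OE and 8.76% ± 1.98 in Kitl_OE. That brought it to 22.5 ± 4.53 TPM in Kitl_OE, a level that overlapped those of Itga3 (23.5 ± 1.46 TPM) and Itga6 (19.2 ± 3.30 TPM). The length behind the TPM of Itga1 was 5984 bases, where its exons in the GENCODE M21 annotation cover 18599. For Itga3 and Itga6 the 2 lengths were equal, so the place of Itga1 among them depends on the length used. Itgb1 and Itgb5 led the beta chains in every group without overlap. Itgb1 held 65.0% ± 6.64 of beta chain TPM in Egfp_OE, 82.5% ± 0.833 in Kitl_OE and 79.5% ± 2.75 in shCtrl. Itgb7 was the third beta chain in Egfp_OE, with 6.16% ± 2.18, and held 0.0702% ± 0.00648 in Kitl_OE, below Itgb4 and Itgb3.

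**Figure D3:**
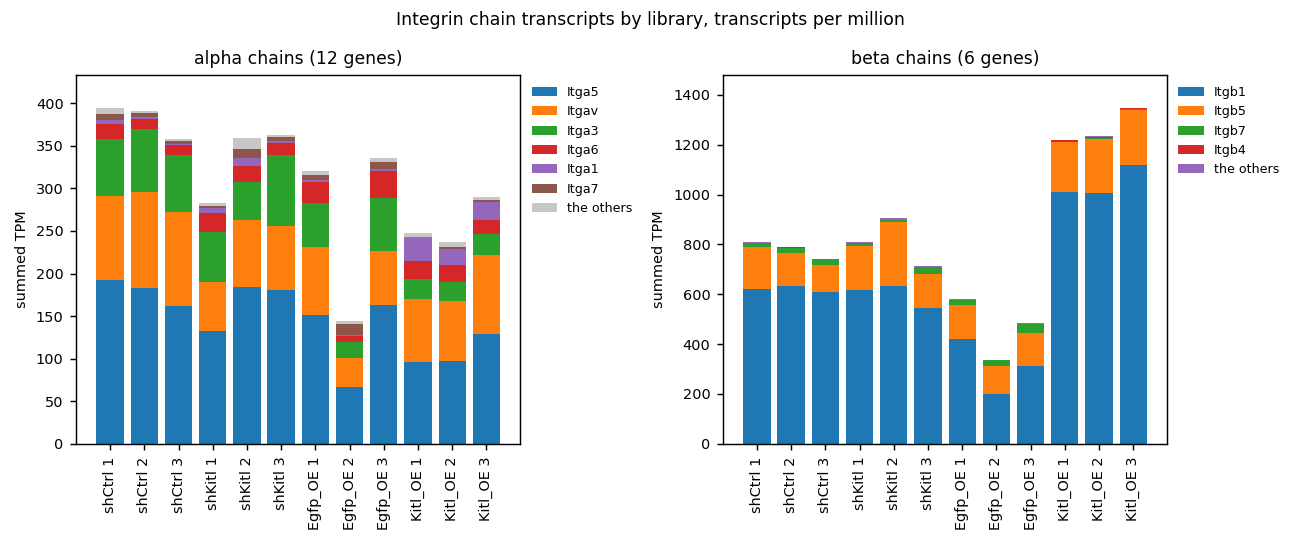
Summed TPM of alpha chains (left) and beta chains (right) in each of the 12 libraries, stacked by gene. The Kitl_OE bars are the tallest on the right through Itgb1, carry the widest Itga1 segment on the left and lack a visible Itgb7 segment.

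The plaque genes that passed all rose. Tns1, a tensin that links beta chains to actin, was at 54.7, 28.4 and 57.8 CPM in Egfp_OE and 241, 199 and 211 CPM in Kitl_OE, and rose 4.62-fold (log2 2.21 ± 0.49 SE, adjusted p = 0.00525). Csrp1, a LIM domain protein of actin bundles, was at 156, 207 and 107 CPM against 634, 568 and 589 CPM and rose 3.81-fold (log2 1.93 ± 0.32 SE, adjusted p = 0.000962). Zyx, the tension-sensitive zyxin, was at 412, 278 and 317 CPM against 802, 757 and 983 CPM and rose 2.52-fold (log2 1.34 ± 0.20 SE, adjusted p = 0.0005565). For these 3 genes every Kitl_OE library was above the other 9. Lpp, a zyxin relative, rose by a log2 of 1.11 (adjusted p = 0.0120), and Pdlim7, a scaffold of actin filaments, by 0.49 (adjusted p = 0.0180). The Pdlim7 call was lost without Egfp_OE replicate 3 or Kitl_OE replicate 3 (log2 0.45 and 0.39).

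A member of each arm of the ILK, PINCH and parvin complex rose. Lims1, which encodes PINCH1, was at 180.4, 146 and 140.3 CPM in Egfp_OE and 379, 345 and 375 CPM in Kitl_OE (log2 1.24 ± 0.17 SE, adjusted p = 0.000358). Parva was at 226, 154 and 218 CPM against 384, 365 and 383 CPM (log2 0.92 ± 0.17 SE, adjusted p = 0.00204). Ilk, the pseudokinase at the centre of the complex, was at 19.05, 3.24 and 19.1 CPM against 35.1, 33.5 and 43.4 CPM. Its rise (log2 1.43 ± 0.46 SE, adjusted p = 0.0311) drew on the low Egfp_OE replicate 2: without that library log2 was 0.98 with less spread (adjusted p = 0.000417), and the call was lost without any 1 of the 3 Kitl_OE libraries (log2 1.33 to 1.52, adjusted p 0.0589 to 0.0818). Fermt2, the kindlin of mesenchymal cells, rose by a log2 of 0.74 (adjusted p = 0.0230), and the call was lost without Egfp_OE replicate 3 or Kitl_OE replicate 1 or 3 (log2 0.70 to 0.75, adjusted p 0.0648 to 0.0670). Fermt2 was at 84.3 to 98.7 CPM in Kitl_OE and 39.6 to 74.5 CPM in Egfp_OE. The Kitl_OE values lay within those of shCtrl (71.3 to 108 CPM), so the rise was over Egfp_OE only.

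Both talins were near the threshold. Tln1 was at 561, 266 and 549 CPM in Egfp_OE and 751, 669 and 773 CPM in Kitl_OE, without overlap (log2 0.67 ± 0.24 SE, adjusted p = 0.0454). Tln2, the less abundant talin, gave a log2 of 0.99 (adjusted p = 0.0483). Either call was lost without any 1 of the shCtrl, shKitl or Kitl_OE libraries (adjusted p 0.0541 to 0.117), and without Egfp_OE replicate 2 both passed with smaller values (log2 0.41 and 0.62). The 3 plaque genes that did not pass were Vcl, Ptk2 and Pxn.

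Vcl, which encodes vinculin, was at 101, 7.73 and 79.02 CPM in Egfp_OE and 184, 175 and 201 CPM in Kitl_OE, without overlap. With Egfp_OE replicate 2 far below its group the difference missed the threshold (log2 1.57 ± 0.60 SE, adjusted p = 0.0631). Without that library it was smaller and passed (log2 1.06, adjusted p = 0.00107). It also passed without Egfp_OE replicate 1 (log2 2.11, adjusted p = 0.0368). Ptk2, the focal adhesion kinase FAK, was at 172, 115 and 178 CPM against 184, 168 and 186 CPM, which overlapped (log2 0.21, 95% interval -0.20 to 0.62, adjusted p = 0.408). Pxn, the scaffold paxillin, was the plaque gene with a negative value (log2 -0.33, adjusted p = 0.203), and without Egfp_OE replicate 2 it was called lower (log2 -0.52, adjusted p = 0.00770).

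Among actin binding genes, Flna had the largest rise. This filamin crosslinks actin and binds beta chain tails, and it was at 2146, 654 and 1974 CPM in Egfp_OE and 4377, 3534 and 5093 CPM in Kitl_OE. The rise was 2.72-fold (log2 1.45 ± 0.35 SE, adjusted p = 0.00908), and log2 was 1.09 (adjusted p = 0.00193) without Egfp_OE replicate 2. Cnn2, a calponin that steadies filaments, was at 318, 442 and 270.5 CPM against 835, 783 and 1009 CPM (log2 1.35 ± 0.24 SE, adjusted p = 0.00164). Tagln2, of the same family, was at 205, 143 and 195 CPM against 403, 395 and 476 CPM (log2 1.23 ± 0.22 SE, adjusted p = 0.00175). Palld, the bundling protein palladin, was at 99.8, 57.4 and 74.7 CPM against 172, 151 and 191 CPM (log2 1.15 ± 0.24 SE, adjusted p = 0.00418). None of these 4 overlapped between the groups.

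Actn1, an alpha-actinin, rose by a log2 of 0.96 (adjusted p = 0.0103), Cald1, the caldesmon of filaments, by 0.75 (adjusted p = 0.00356), and Cnn3 by 0.58 (adjusted p = 0.0140). Cnn3 was not called without Kitl_OE replicate 1 (log2 0.57, adjusted p = 0.0514). Of the 3 tropomyosins, which wrap along filaments, Tpm2 rose (log2 0.90, adjusted p = 0.0170). That call was lost without Egfp_OE replicate 1 or 3 or Kitl_OE replicate 3 (log2 0.75 to 0.82). Tpm1 was at 753, 889 and 719 CPM against 1028, 873 and 1333.5 CPM, and the groups overlapped through Egfp_OE replicate 2 (log2 0.45, adjusted p = 0.0759). It passed without Kitl_OE replicate 2 (log2 0.60, adjusted p = 0.0493). Tpm4 (log2 0.48, adjusted p = 0.163) and the alpha-actinin Actn4 (log2 0.22, adjusted p = 0.480) did not pass, but Tpm4 did without Egfp_OE replicate 1 (log2 0.75, adjusted p = 0.0452). Myh9, the heavy chain of non-muscle myosin IIA, was at 1902, 767 and 1841 CPM against 2427, 2278 and 2477 CPM, without overlap, and missed the threshold (log2 0.67, adjusted p = 0.0786). Myh9 passed without Egfp_OE replicate 1 (log2 0.88, adjusted p = 0.0469), and without Egfp_OE replicate 2 the values of Tpm1 (log2 0.56, adjusted p = 0.0341) and Myh9 (log2 0.37, adjusted p = 0.0400) passed.

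In all, 17 of the 29 calls held with each of the 12 libraries left out in turn: Itgb1, Itga1, Itgb4, Itgb7 and Itgb8, the plaque genes Tns1, Csrp1, Zyx, Lims1, Lpp and Parva, and the actin binding genes Flna, Cnn2, Tagln2, Palld, Actn1 and Cald1. Measured against all 9 libraries of the other groups, Kitl_OE lay wholly above for 9 of 14 plaque, 6 of 12 actin binding and 3 of 18 integrin genes, and wholly below for 0, 0 and 4. Over all genes tested these shares were 13.7% and 13.8%. Among the 17 calls that held, Kitl_OE overlapped shCtrl for Lpp and Actn1 and shKitl for Palld. When libraries were scaled by the spike-in totals, 4 plaque, 2 actin binding and 3 integrin genes were called higher and 3 integrin chains lower, with medians of 0.96, 0.85 and -0.17, while 15.4% of all genes were called in place of 34.3%. Of the 17 calls, those of Parva, Lpp, Flna, Tagln2, Palld, Actn1 and Cald1 did not pass under that scaling (adjusted p 0.0874 to 0.225).

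The shift between long and short genes in Egfp_OE replicate 2 was set beside the lengths of the members; its part in their values was not separated from other differences of this library. Their median length, taken from the ratio of deposited counts to TPM, was 5550 bases against 3879 for the 14701 genes with a length. The deviation of this library's log2 CPM from the mean of the other Egfp_OE replicates had medians of 0.81, 0.32, -0.02, -0.31 and -0.61 from the shortest (up to 1996 bases) to the longest length quintile (6857 bases or more). Spearman's rho with length across genes, which are not independent, was -0.472 in this library. It was 0.426 and 0.3945 in the other Egfp_OE libraries, whose reference contains replicate 2, and -0.299 to 0.168 in the other 9.

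Of the 44 members, 32 were below 0 in Egfp_OE replicate 2, against 50.1% of all genes, with a median deviation of -0.61. Set against genes of their own length decile, 26 were below the median, and the median distance from it was -0.20. Among long members, Tns1, of 16010 bases, deviated by -0.98 where its decile had -0.72, and Tln1, of 9801 bases, by -1.06. Csrp1, the shortest member at 1956 bases, deviated by 0.68 where its decile had 0.69. Vcl and Ilk lay far from their deciles. Vcl, of 5229 bases, deviated by -3.52 against -0.26 for its decile, and Ilk, of only 2744 bases, by -2.53 against 0.23. They lay at percentiles 0.204 and 0.952 of their deciles, and the low-count Itga2 (-2.95) at 0.272.

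**Figure D4:**
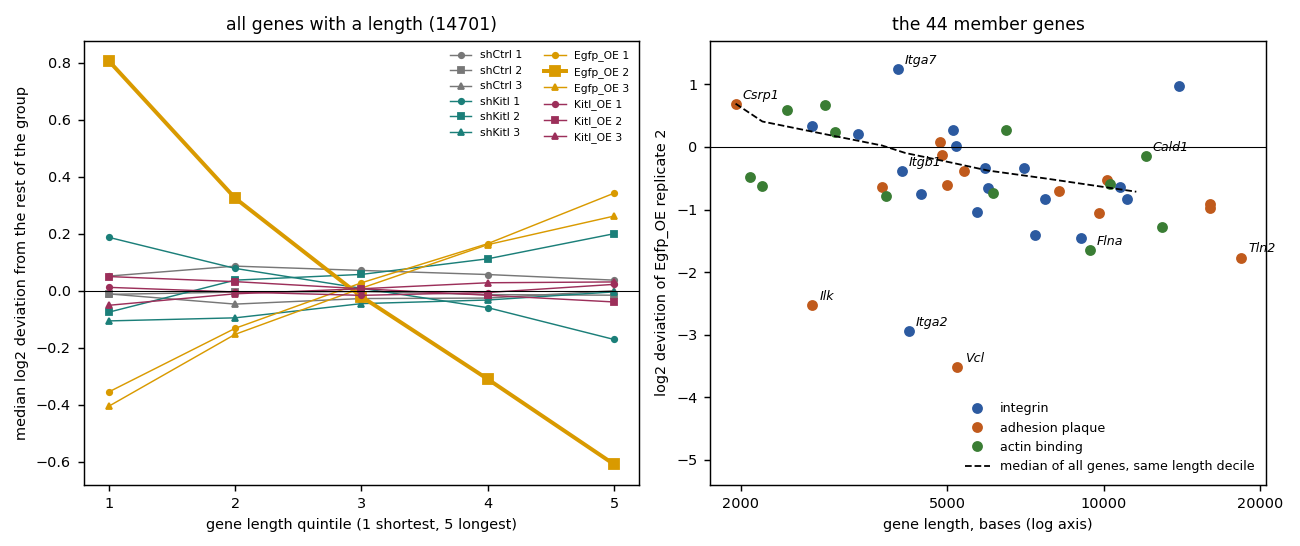
Left, median log2 deviation of each library from the other replicates of its group by gene length quintile; the line of Egfp_OE replicate 2 falls from 0.81 to -0.61. Right, the deviation of the 44 members in that library against gene length (log axis), with the median of all genes by length decile dashed; Vcl, Ilk and Itga2 lie far below it.

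With a length offset per library, 12 plaque genes and 9 actin binding genes were called higher, with Vcl (log2 1.56, adjusted p = 0.0475) and Myh9 (log2 0.65, adjusted p = 0.0102) added, and Pxn was called lower (log2 -0.40, adjusted p = 0.0276). The integrin counts were again 5 and 5. Of all genes, 38.7% were called with this offset against 34.3% without it. With Egfp_OE replicate 2 left out altogether, 22 of the 26 plaque and actin binding genes were higher and 1 lower, and 4 integrin chains were higher and 6 lower. Of all genes, 39.4% were then called, 3094 higher and 3056 lower. The median of the plaque and actin binding genes was then 0.77 against 0.94 with all libraries. Calls thus increased among all genes as well as among the members.

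**Figure D5:**
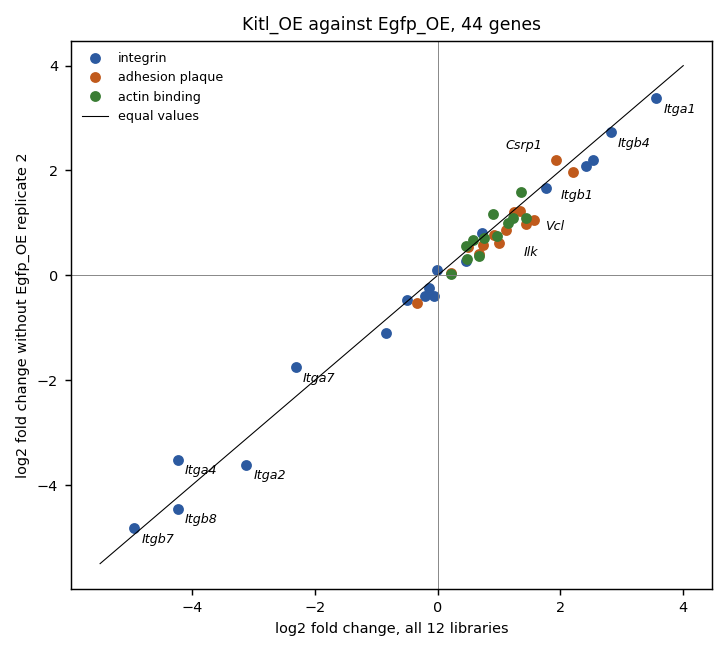
Log2 fold change of the 44 genes, Kitl_OE against Egfp_OE, with all 12 libraries (x axis) and without Egfp_OE replicate 2 (y axis); the line marks equal values. Itgb1, Itga1, Itgb4, Itgb7 and Itgb8 stay near the line, and Vcl and Ilk lie below it, with smaller rises.

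The second comparison asked whether the members differ when Kitl is lowered. edgeR called 0 of the 44 in shKitl against shCtrl, as it did for 0.0% of all genes. Kitl itself, the gene knocked down, was not called here, so a member not called may still differ. At an unadjusted p of 0.05, 9 members and 2417 of all 15271 genes passed. Of these members, Itga1 (log2 1.23), Itga11 (2.13), Itgb4 (0.98), Itgb5 (0.50) and Lims1 (0.41) had higher values in shKitl, with overlapping groups. Itgav (-0.59), Tpm4 (-0.67), Cald1 (-0.43) and Tagln2 (-0.57) had lower ones. Itga1, Itgb4, Itgb5 and Lims1 were also called higher in Kitl_OE against Egfp_OE. DESeq2 called 318 genes higher and 134 lower, among them 1 member, Cald1 (log2 -0.47, adjusted p = 0.0377). The median was 0.28 for integrin chains, 0.02 for plaque and -0.30 for actin binding genes, beside 0.05 for all genes.

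The groups did not overlap for 11 members lower and 1 member higher in shKitl. Of all genes, 19.7% did not overlap in either direction and 8.64% were lower. Flna was at 2738, 3411 and 3470 CPM in shCtrl and 2202, 1924 and 2060 CPM in shKitl (log2 -0.64, 95% interval -1.40 to 0.13, adjusted p = 0.382). Itgav was at 317, 398 and 419 CPM against 223, 271 and 259 CPM, and Myh9 at 2304, 2258 and 2163 against 1761, 1899 and 1704 CPM. Tln1 was at 659, 653 and 641 against 555, 582 and 558 CPM. The others lower were Actn4, Tpm4, Cald1, Tagln2, Lpp, Pdlim7 and Fermt2, and Tpm1 was the member higher, at 761, 713 and 736 against 1047, 851 and 838 CPM. Itgb1 overlapped, at 757, 840 and 877 against 904, 818 and 721 CPM (log2 -0.02 ± 0.19 SE), as did Itga5 (log2 -0.09), Itgb3 (log2 0.92), Vcl (log2 -0.25) and Ptk2 (log2 -0.23).

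Whether the response to overexpression differed from that to knockdown was tested directly, as the difference of the 2 log2 differences. A positive value can come from opposite changes, from a rise with overexpression alone, from a fall with knockdown alone or from a larger rise with overexpression. A low Egfp_OE or a high shCtrl also raises it. Itgav averaged 295 CPM in Kitl_OE, below the 378 CPM of shCtrl. In Egfp_OE against shCtrl, log2 was -0.81 for Itgav, -0.92 for Itgb1 and -1.01 for Flna, and 14 of the 44 members had a positive value. The part of the control lines in the calls below was not tested. Flna had log2 1.45 with overexpression and -0.64 with knockdown, Itgb1 1.77 and -0.02, and Itga1 3.56 and 1.23. The difference was called positive for 17 members and negative for 2, where 4.07% and 9.88% of all genes were. The positive ones were 7 plaque genes, 6 actin binding genes and 4 integrin chains. Itgb1 differed by 1.79 ± 0.27 SE (adjusted p = 0.00139), Tagln2 by 1.80 ± 0.32 (adjusted p = 0.00365), Cald1 by 1.18 ± 0.22 (adjusted p = 0.00500), Flna by 2.08 ± 0.50 (adjusted p = 0.0175) and Zyx by 1.28 ± 0.28 (adjusted p = 0.0117). Itgav, not called in either comparison, differed by 1.045 ± 0.30 (adjusted p = 0.0402). Itgb7 (-4.58 ± 0.58, adjusted p = 0.000533) and Itgb8 (-4.63 ± 0.56, adjusted p = 0.000382) were the negative ones. Of the 17 positive calls, 5 (Itgb1, Tagln2, Cald1, Flna and Zyx) held with each library left out in turn, as did both negative ones. Under spike-in scaling, however, none of these 5 passed (adjusted p 0.0637 to 0.209). The positive calls were then 2, Csrp1 and Cnn2, with 6.02% of all genes called, and Itgb7 and Itgb8 still passed. With the P number of the labels as covariate 9 were positive, and Flna did not pass (adjusted p = 0.0638). The positive count was 5 to 11 without any 1 of shCtrl replicates 1, 2 and 3, shKitl replicates 2 and 3, Egfp_OE replicate 3 and Kitl_OE replicates 1, 2 and 3, and the negative count was 4 without Egfp_OE replicate 2.

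The control lines themselves were compared, since each comparison rests on its own. Itgb1 was lower in Egfp_OE than in shCtrl (log2 -0.92 ± 0.19 SE, adjusted p = 0.0447), the single member called, where 1.25% of all genes were called, 0.511% higher and 0.74% lower. That call was lost in 9 of 12 omissions of a library, all but those of shCtrl replicate 1, shKitl replicate 3 and Egfp_OE replicate 1 (log2 -0.93 to -0.80, adjusted p 0.0521 to 0.218). It was also lost with a replicate block (adjusted p = 0.0556), spike-in scaling (adjusted p = 0.320) and the P number as covariate (log2 -0.67, adjusted p = 0.216). The labels give P numbers 14 to 16 for shCtrl and 17 to 19 for Egfp_OE, so that number and the line cannot be told apart by matched libraries. They give 13 to 15 for shKitl and 18 to 20 for Kitl_OE. In P number, shKitl thus lay lower than its control and Kitl_OE higher than its own, with some numbers shared. The member median was -0.40, beside 0.05 for all genes, and 18 members were lower without overlap and 2 higher, against 13.9% and 14.6% of genes. For Itgb1, at 721 to 904 CPM in shCtrl and shKitl, Egfp_OE was thus the lowest group and Kitl_OE the highest.

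Lists of further genes were described the same way in Kitl_OE against Egfp_OE, where 15.4% of all genes were called higher and 18.9% lower, 34.3% in all. Of 35 other plaque and adhesion signalling genes tested, 15 rose and 4 fell, among them Lims2 (PINCH2, log2 5.02) and Sorbs2 (4.62), an adaptor that binds vinculin, and on the other side the parvin Parvb (-4.59), the actin elongation factor Enah (-2.12) and the kinase Pak1 (-1.08). Of 36 other actin and actomyosin genes, 9 rose and 1 fell. The membrane linker Ezr (log2 2.93), the myosin light chain Myl9 (2.92) and its kinase Mylk (2.40) rose, and Rdx, a relative of Ezr, fell (-0.84). Of 30 extracellular ligands of integrins tested, 11 rose and 7 fell, with Ctgf (3.41), Lama5 (2.82) and Col4a1 (2.55) highest and Edil3 (-7.26), Spp1 (-5.39) and Lama4 (-4.83) lowest. The calls of these named genes held with each library left out, while the count of ligands called lower was 4 without Kitl_OE replicate 1. Without Egfp_OE replicate 2 the actin list had 15 genes higher and 3 lower, when 39.4% of all genes were called. Of 8 integrin chains outside the members, mostly of blood cells, 3 were tested. edgeR called 0 of them, 2 passed at an unadjusted p of 0.05, and DESeq2 called 2 lower.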

How the data were processed

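RNA-seq was measured in 12 libraries, 3 in each of 4 groups. The authors deposited unnormalized gene counts. STAR 2.5.2b, featureCounts of Subread 1.5.2 and mouse build GRCm38 are named, per the submitters' processing notes. The authors also deposited TPM, which are scaled over all rows, spike-ins included. Neither the annotation release nor the strand setting is stated in the labels or headers, so reads of overlapping or antisense genes cannot be told apart. Each table had 49763 rows, of which 92 were ERCC spike-ins left out of library sizes, and 0 columns of per-sample values were left unused.

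Counts were filtered with edgeR's filterByExpr, scaled by TMM and fitted with edgeR 4.0.16 (quasi-likelihood, robust, R 4.3.3), with a coefficient per group over all 12 libraries. The biological coefficient of variation was 0.292. Benjamini-Hochberg adjustment covered all 15271 genes tested, with a threshold of 0.05, and every adjusted p in the text is edgeR's unless another tool is named. Each ± beside a log2 value is a standard error, and each ± beside TPM or a share is an SD with n = 3. Gene lengths were taken from the ratio of counts to TPM. Of 8360 genes with at least 200 counts in every library, 84.8% had a length within 10% of their GENCODE M21 exons. Members that differed more include Itga1, Itga7 and Vcl. On simulated counts for Kitl_OE against Egfp_OE over 14964 genes, 24.5% of 98 genes changed 2-fold and 79.6% of 98 changed 4-fold were recovered, with 3 false calls. The simulated counts held far fewer changed genes than were called in the data, and no outlying library or length trend. These rates therefore need not hold for the data.

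The members and lists were chosen with earlier results of these data known. Values per library were given for 10 preset genes, the called members of largest change in each class and any member called between control lines. Those of other members were added after their values were seen. Of other lists, up to 3 called genes of largest change in each direction were named, except 1 that is not reported here. Alternatives were DESeq2 1.42.0, its size factors, no filter, spike-in scaling, a replicate block, the P number of the labels (meaning not given) as covariate, a length offset, limma 3.58.1 on log2(TPM + 1), and each library left out.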

Additional observations from a re-analysis of the deposited data

How the results depend on the processing

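Over the alternatives, 195 summary values stayed within 1.5 times or within the spread and 47 moved, and no member reversed in a called direction. Scaling by spike-in totals left 3 integrin, 4 plaque and 2 actin binding genes higher and 3 integrin chains lower with Kitl overexpression, 2 members with a positive difference between overexpression and knockdown, and 0 lower between control lines, where it moved the median of all genes from 0.05 to -0.34. Without a filter on low counts 7 plaque genes were higher and 2 members lower between control lines. With the P number as covariate the positive differences were 9 and the control lines gave 0. With limma they were 11, 1 member had a negative difference and 3 integrin chains were lower. The length offset called 1 plaque gene lower and 2 members lower between control lines. DESeq2 called 1 member lower with knockdown and 6 between control lines, where it called 10.2% of all genes. Leaving out each library in turn gave 6 to 12 plaque genes higher, 0 to 1 plaque gene lower, 3 to 6 integrin chains lower, 5 to 20 positive and 2 to 4 negative differences, and 0 to 1 members higher and 0 to 5 lower between control lines. Whether replicate numbers pair the samples was not settled. Deviations of same-numbered libraries correlated at 0.0262, 0.204 and 0.169 between Egfp_OE and Kitl_OE and at 0.151, -0.259 and 0.527 between shCtrl and shKitl. The same number was the best partner for Egfp_OE replicates 2 and 3 and shCtrl replicate 3, and not for Egfp_OE replicate 1 or shCtrl replicates 1 and 2. With the replicate block, 25 members were higher and 5 lower with overexpression, 13 had a positive difference, and 0 were lower between control lines. The length trend of Egfp_OE replicate 2 was -0.391 against the other 11 libraries, and that of replicate 3 was 0.135 in place of 0.394. The cause of these changes was not tested. With 3 libraries a group, changes near 2-fold were often missed in the simulated counts, and chains with under 100 counts in a group are imprecise.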
